A study of Mus musculus with 15 samples.

Results

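The expression of 10 genes better known from immune, epithelial or signalling contexts than from the ovary was followed in mouse cumulus cells at 3 stages, namely Spp1, Pdcd1, Camp, Dmbt1, Krt23, Nt5e, Inpp5j, Pik3c2g, Olr1 and Cd52. They were chosen by name, for very large rises toward the ovulated stage, among the 15023 named genes whose probes passed the filter on low values. The 10 genes had 11 probes in the deposited table, with 2 for Camp and 1 for each other gene, and all 10 passed that filter, Krt23, Nt5e and Olr1 through their ovulated arrays alone. Cumulus cells are the somatic cells that surround the oocyte. NC1 cells were taken from unexpanded complexes of juvenile B6CBAF1/J mice aged 3 weeks, whose prophase I oocytes resume meiosis but do not yet support development. C1 cells were taken from unexpanded complexes of adults of the same cross aged 8 weeks, whose prophase I oocytes are developmentally competent. C2 cells were taken from complexes with an expanded matrix, flushed from the oviduct of adults aged 8 weeks, with metaphase II oocytes, after a gonadotropin priming (PMSG) and an ovulatory dose of hCG. Pipetting freed the oocytes at both prophase I stages, and C2 complexes were dispersed in hyaluronidase at 300 µg/ml. Each stage had 5 arrays, and each array carried the RNA of cells pooled from several mice. Stage cannot be told apart from age between NC1 and C1, and between C1 and C2 not from the hormones, the oviduct or the enzyme.

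In the ovulatory follicle, the surge of luteinizing hormone makes cumulus cells secrete a hyaluronan matrix and express many genes that were first described in inflammation and innate immunity. Several of these genes encode cell surface receptors that leukocytes also carry, so that their transcripts in a cumulus sample can come from the cumulus cells or from leukocytes among them. In pooled samples, fewer cells of a type and less RNA per cell cannot be told apart. The genes studied here include a secreted adhesive glycoprotein (Spp1), secreted defence proteins (Camp and Dmbt1), surface receptors and glycoproteins (Pdcd1, Olr1 and Cd52), an ectoenzyme (Nt5e), enzymes of phosphoinositide metabolism (Pik3c2g and Inpp5j) and a keratin (Krt23).

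Levels are given as log2 of the background-subtracted intensity relative to the median of the 17324 probes that were valid in every stage of that array, so that 0 is the level of the median valid probe. A level belongs to 1 probe and is not compared between genes, because probes differ in brightness. Probes were fitted that passed the scanner's background test on 4 or more of the 5 arrays of any 1 stage, and a probe that was not well above background on any array of a stage has only an upper bound there. The lower bound of a fold is then given as "at least N-fold", from the mean of the bright stage and, on each dim array, the higher of the probe's own signal and the weakest signal found well above background. The 9 cumulus and granulosa markers listed (such as Foxl2, Fshr and Amhr2) were well above background on all 15 arrays. Most of them fell from C1 to C2, as given further on. Gene probes well above background numbered between 18368 and 24496 per array, out of 39429.

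A few arrays stood apart before any comparison. C1 replicate 4 held 12 of 12 ovulatory response genes above background, against 4 to 6 on the other C1 arrays, and their summed linear level was 20.96 there against 5.32 to 8.90. Tnfaip6, a hyaluronan-binding protein of the expanding cumulus matrix, stood at 2.70 on that array and between -3.77 and -2.90 on the other C1 arrays. C2 replicate 1 carried the highest leukocyte marker levels, described further on. Values without these arrays are given where a result rests on them. C2 replicates 4 and 5 had lower summed levels of oocyte genes than the other C2 arrays, as given further on.

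Windows of 250 bases before the annotated start were at hand for 7 of the 10 genes (RefSeq, build GRCm38.p6, 9 windows). Those of Spp1, Camp, Pik3c2g and Olr1 are shown because these genes differed in when they rose. They are written 5′ to 3′ on the strand of the gene, and capitals mark matches to any of 7 short motifs searched on both strands, namely the RUNX motif TGTGGT, the C/EBP motif TTGCNNAA, the AP-1 motif TGANTCA, the cAMP response element TGACGTCA, the NR5A motif AAGGTCA, the GATA-factor motif AGATAA and the TATA-box motif TATAAA. The Spp1 window is chr5:104434861-104435110 on the plus strand (the first of 2 annotated starts), and that of Camp chr9:109849457-109849706 on the minus strand. That of Pik3c2g is chr6:139841195-139841444 on the plus strand (the second of 2 annotated starts), and that of Olr1 chr6:129507166-129507415 on the minus strand.
Spp1: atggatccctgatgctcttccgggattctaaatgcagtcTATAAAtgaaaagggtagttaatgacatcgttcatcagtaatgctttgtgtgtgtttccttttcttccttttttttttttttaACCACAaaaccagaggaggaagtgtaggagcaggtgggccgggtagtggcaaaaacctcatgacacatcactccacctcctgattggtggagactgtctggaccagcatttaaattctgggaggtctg
Camp: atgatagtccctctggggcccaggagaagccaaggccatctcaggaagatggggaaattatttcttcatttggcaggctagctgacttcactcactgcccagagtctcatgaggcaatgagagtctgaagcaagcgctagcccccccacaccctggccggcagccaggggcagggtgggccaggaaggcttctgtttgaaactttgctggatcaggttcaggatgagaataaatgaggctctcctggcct
Pik3c2g: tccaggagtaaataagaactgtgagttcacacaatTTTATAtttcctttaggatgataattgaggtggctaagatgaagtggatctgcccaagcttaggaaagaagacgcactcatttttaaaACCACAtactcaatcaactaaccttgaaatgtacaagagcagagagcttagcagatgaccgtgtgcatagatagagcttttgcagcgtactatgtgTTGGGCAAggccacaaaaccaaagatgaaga
Olr1: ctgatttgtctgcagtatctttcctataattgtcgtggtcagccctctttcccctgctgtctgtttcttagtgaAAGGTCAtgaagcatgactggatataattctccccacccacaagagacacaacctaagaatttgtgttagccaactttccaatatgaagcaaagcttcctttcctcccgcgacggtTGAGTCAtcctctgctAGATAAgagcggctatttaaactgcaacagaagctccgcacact

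The Spp1 window shown held a RUNX match that began 128 bases before the start and a TATA match 211 bases before it. The Spp1 window not shown held a C/EBP match 156 bases before its start, and the Pik3c2g window not shown a GATA match 191 bases before its start. The Pik3c2g window shown held a RUNX match 127 bases before the start, a C/EBP match and a TATA match. The Olr1 window held an AP-1 match 60 bases before the start, an NR5A match and a GATA match. No match was found in the Camp window, nor in those of Pdcd1 and Nt5e. No motif was found in windows of more than 3 of the 7 genes. RUNX matches were found in 2 of the 9 windows and in 14% of 32851 windows of all genes, and C/EBP matches in 3 of the 9 and in 9.56%. AP-1 matches were found in 1 of the 9 windows (6.75% of all windows), NR5A matches in 1 (4.08%), GATA matches in 2 (9.99%), TATA matches in 2 (12.4%) and CRE matches in 0 (1.55%). The share of G and C was between 35.6% and 72% in the 9 windows, around a median of 52.4% in all windows. A match is a run of letters and was not tested as a binding site.

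At C2, the 10 genes were well above background on all 5 arrays, and at NC1 7 of them (Camp, Dmbt1, Krt23, Nt5e, Inpp5j, Pik3c2g and Olr1) were well above background on none. At C1, 7 of the 10 were well above background on all 5 arrays (Spp1, Pdcd1, Camp, Dmbt1, Inpp5j, Pik3c2g and Cd52), Nt5e on 3, Krt23 on 1 and Olr1 on none. Every C2 array was above every C1 and every NC1 array for each of the 11 probes. The genes were chosen on these differences, so that they are given as a description, with no test. The share of all probes separated in the same way was not counted. From C1 to C2, 24.2% of all probes were called higher (limma, adjusted p under 0.01). By the size of C2 minus C1 the 10 genes lay between rank 1 (Krt23, above background on 1 C1 array only) and rank 405 (Pik3c2g) of the 20844 probes fitted.

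**Figure D1:**
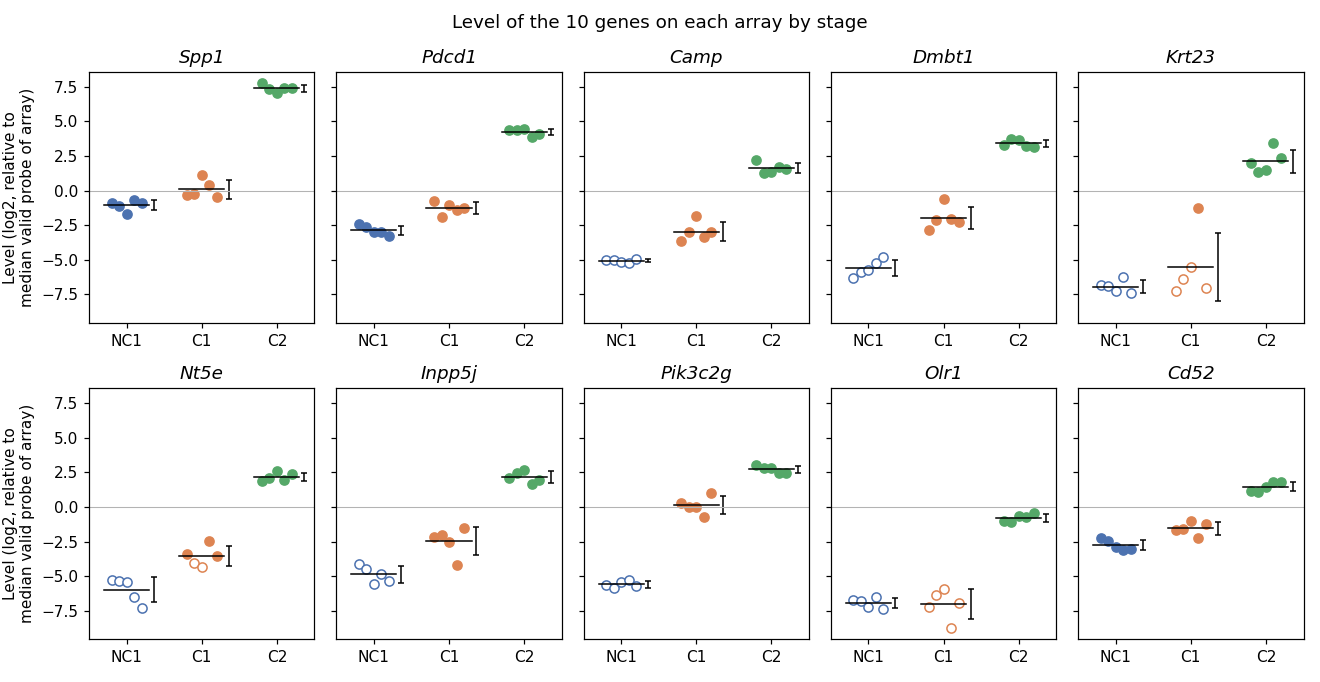
Level of each of the 10 genes (vertical axis, log2 relative to the median valid probe of the array) on the 5 arrays of NC1, C1 and C2, with the stage mean as a line and the SD beside it. Open circles are arrays on which the probe was not well above background; every C2 point lies above every other point of its gene, and 7 genes have open circles at NC1 on all 5 arrays.

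The question left by the choice of genes is which of them already differed between the prophase I stages, a comparison that the choice did not use, although it shares its arrays with those that were used. From NC1 to C1, 7 of the 10 genes rose (Pdcd1, Camp, Dmbt1, Nt5e, Inpp5j, Pik3c2g and Cd52; limma, adjusted p under 0.01, two-sided), and none fell. Over all 20844 probes 2.1% were called higher and 0.84% lower at C1. Of the genes called, Camp, Dmbt1, Nt5e, Inpp5j and Pik3c2g were well above background on no NC1 array. For these, and for Krt23 and Olr1, a fall could hardly have been found. Only Spp1, Pdcd1 and Cd52 could have been called in either direction, so the lack of falls adds little. The median difference of the 10 genes was 1.85 on the log2 scale, beside -0.03 over all probes. Every C1 array was above every NC1 array for 7 of the 10 genes (Spp1, Pdcd1, Camp, Dmbt1, Nt5e, Pik3c2g and Cd52), and for 3.71% of all probes. With normexp background correction in place of the scanner's own, Camp (adjusted p = 0.0157), Inpp5j (0.0174) and Cd52 (0.0128) were no longer called by the same limma test and Spp1 was (0.00847).

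**Figure D2:**
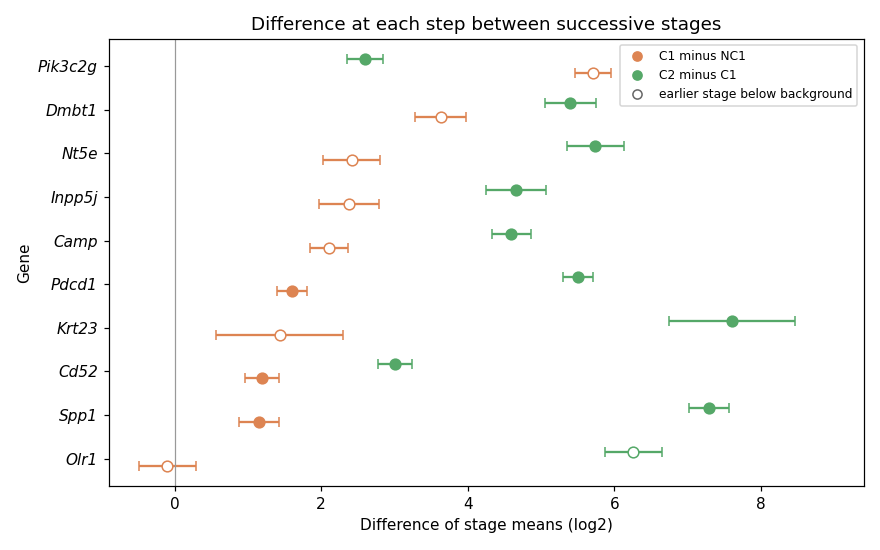
Difference of stage means (horizontal axis, log2) from NC1 to C1 and from C1 to C2, with the standard error of the fit, for the 10 genes ordered by the first step. Open circles mark an earlier stage in which no array was well above background; Pik3c2g had the larger difference at the first step, and the other 9 genes at the second.

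Pik3c2g, which encodes a class II phosphoinositide 3-kinase, showed the largest first step. Its levels were -5.63, -5.89, -5.45, -5.29 and -5.71 on the NC1 arrays, none of them well above background. They were 0.25, 0.01, 0.01, -0.75 and 1.04 on the C1 arrays and 3.04, 2.81, 2.83, 2.44 and 2.44 on the C2 arrays. The 3 stages did not overlap, and the gap between NC1 and C1 was wider than the spread within either. The level at C1 exceeded that at NC1 at least 28.6-fold (limma, adjusted p = 1.49e-09), and C2 exceeded C1 by a further 2.60 (SE 0.25) on the log2 scale, a 6.06-fold difference. The lower bound on the log2 scale was 4.84, and 3.38 with normexp. Within the 4 slides, each of which held the 3 stages, C1 minus NC1 lay between 4.69 and 6.93. Another probe for Pik3c2g outside the deposited table was not well above background on any array.

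Inpp5j, which removes the 5-phosphate from phosphoinositides, rose less evenly. Its levels at C1 were -2.17, -2.02, -2.52, -4.19 and -1.56, those at NC1 lay between -5.57 and -4.12 with no array above background, and those at C2 between 1.65 and 2.65. The C1 and NC1 arrays overlapped through C1 replicate 4 alone. C1 was at least 4.38-fold higher than NC1 (limma, adjusted p = 0.00192), and without C1 replicate 4 the fitted difference went from 2.38 to 2.81.

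Among the genes of secreted defence proteins, Dmbt1, a scavenger protein of mucosal surfaces, stood at -2.83, -2.10, -0.61, -2.07 and -2.24 on the C1 arrays. Its NC1 levels, none well above background, lay between -6.34 and -4.81, and its C2 levels between 3.16 and 3.74. The 3 stages were separate, with C1 replicate 3 highest among the C1 arrays. C1 was at least 6.47-fold higher than NC1 (limma, adjusted p = 8.09e-06) and C2 was 42.3-fold higher than C1 (5.40 ± 0.35 SE on the log2 scale).

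Camp, the cathelicidin antimicrobial peptide of neutrophils and epithelia, was measured by 2 probes. The probe with the higher mean over the 15 arrays, used for Camp throughout, stood at -3.65, -3.02, -1.85, -3.32 and -2.95 at C1 and at 2.22, 1.29, 1.36, 1.74 and 1.59 at C2, whereas its NC1 levels lay between -5.22 and -4.96 and were not well above background. C1 replicate 3 was again the highest of its stage. C1 was at least 3.33-fold higher than NC1 by this probe (limma, adjusted p = 0.000125) and at least 4.31-fold higher by the second (adjusted p = 8.91e-07). From C1 to C2 the differences were 4.60 (SE 0.26) and 4.95 (SE 0.30) on the log2 scale, so that both probes gave the same order of stages. With normexp the second probe was still called at the first step (limma, adjusted p = 0.000519), and the first was not. The second probe was the brighter one where Camp was measured, with means of -2.62 at C1 and 2.34 at C2 against -2.96 and 1.64.

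Spp1 encodes osteopontin, a secreted phosphoprotein that binds integrins and CD44. Its levels were -0.92, -1.10, -1.65, -0.69 and -0.92 at NC1 and -0.31, -0.27, 1.15, 0.40 and -0.48 at C1. At C2 they reached 7.76, 7.32, 7.03, 7.42 and 7.44. NC1 and C1 did not overlap, by a margin of 0.22, and C2 was far above both. The first step, 1.15 (SE 0.27), did not pass the threshold (limma, adjusted p = 0.0189) and lay between 0.62 and 2.05 within the 4 slides, where a fit with slide as a block did call it (adjusted p = 0.00469). The second step was 7.30 (SE 0.27) on the log2 scale, or 157-fold.

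Of the genes of surface proteins, Pdcd1, the checkpoint receptor PD-1 of activated T cells, was well above background on all 15 arrays. Its levels were -2.42, -2.65, -2.96, -2.99 and -3.27 at NC1, and -0.75, -1.92, -1.02, -1.36 and -1.24 at C1. They were 4.35, 4.41, 4.42, 3.90 and 4.13 at C2. The stages were separate at both steps. Pdcd1 rose 3.02-fold from NC1 to C1 (1.60 ± 0.20 SE on the log2 scale; limma, adjusted p = 0.000144), was called in all 28 alternatives, and was 45.3-fold higher at C2 than at C1.

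Cd52, a small GPI-anchored glycoprotein of lymphocytes and of the male genital tract, was the other surface protein gene measured on every array. Its levels were -2.25, -2.49, -2.87, -3.11 and -3.04 at NC1, and -1.68, -1.60, -1.04, -2.23 and -1.24 at C1. They were 1.17, 1.08, 1.44, 1.80 and 1.79 at C2. The highest NC1 array and the lowest C1 array differed by 0.02 only. The first step was 1.20 (SE 0.23; limma, adjusted p = 0.00486) and was not called in 12 of 28 alternatives, among them 7 that left out 1 array (NC1 replicates 3 to 5 and C1 replicates 1, 2, 3 and 5) and the fit with slide as a block (adjusted p = 0.0139), with differences between 0.89 and 1.36 over the 28. The second step was 3.01 (SE 0.23), or 8.06-fold.

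Olr1, the oxidised low density lipoprotein receptor LOX-1 of endothelium and macrophages, was well above background only at C2, with levels of -1.02, -1.09, -0.63, -0.73 and -0.41. Its signals at NC1 and C1 were not well above background on any array, so no difference between these stages could be measured. C2 was at least 16.3-fold higher than C1 and at least 15.4-fold higher than NC1.

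Nt5e encodes the ectoenzyme CD73, which forms adenosine from extracellular AMP. Its levels at C1 were -3.39, -4.06, -4.36, -2.47 and -3.57, of which those of replicates 2 and 3 were not well above background. None of the NC1 arrays was above background, with signals between -7.29 and -5.29, and C2 lay between 1.90 and 2.59. C1 was above NC1 on every array, at least 2.23-fold in the means (limma, adjusted p = 0.00122), and C2 exceeded C1 by 5.74 (SE 0.39) on the log2 scale.

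Krt23, a type I keratin of epithelia, was well above background at C1 on replicate 4 only, at -1.26, with the other C1 signals between -7.28 and -5.49 and NC1 signals between -7.42 and -6.25. The C2 levels were 2.00, 1.33, 1.48, 3.42 and 2.33. The difference between C1 and NC1 did not pass the test (1.43 ± 0.86 SE; limma, adjusted p = 0.442), and the difference was 0.38 without C1 replicate 4 (adjusted p = 0.718). C2 minus C1 was 7.60 (SE 0.86) on the log2 scale, against C1 signals of which 4 were not well above background. Without C1 replicate 4, C2 was at least 88.9-fold higher than the other 4 C1 arrays. C2 was at least 114-fold higher than NC1.

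Over the C1 arrays the genes did not share 1 order. C1 replicate 3 was the highest array for 5 of the 10 genes (Spp1, Camp, Dmbt1, Olr1 and Cd52, of which Olr1 was below background), and C1 replicate 4 was the highest for Krt23 and Nt5e but the lowest for 4 others (Inpp5j, Pik3c2g, Olr1 and Cd52). At C2 the mean level of the 10 genes lay between 2.54 and 2.69 on the 5 arrays.

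Leukocyte markers were then followed on the same arrays, as a list of 65 genes in 7 classes. Of the 63 with a named probe, 34 were fitted, 20 were well above background on all 15 arrays and 15 on none. Those on none included the defining markers Mpo of neutrophils, Cd3d of T cells, Cd79a of B cells, Cpa3 and Cma1 of mast cells, and Flt3 and Cd209a of dendritic cells. Of the B cell list, Cd79b was above background on 0, 2 and 4 arrays of NC1, C1 and C2, and Ms4a1 on 4, 2 and 4. The count of listed genes above background was 22 to 29 on NC1 arrays, 25 to 39 on C1 arrays and 29 to 47 on C2 arrays. The 39 came from C1 replicate 4, and the other C1 arrays had 25 to 32. On replicate 4 the weakest signal well above background was -6.55, against -4.95 to -3.71 on the other C1 arrays, and 24496 gene probes passed. The fitted leukocyte markers averaged 0.40 below their C1 means on that array, so such counts also follow the sensitivity of an array. Their summed linear level was 26.9 to 50.03 at NC1, 34.6 to 53.0 at C1 and 37.3 to 52.0 at C2, of which Csf3r, the receptor of granulocyte colony stimulating factor, held 46% to 77.9%. Without Csf3r, left out after this was seen, the sum was 7.05 to 11.0 at NC1, 10.66 to 14.98 at C1 and 15.6 to 28.1 at C2, the last on replicate 1, so that the C2 arrays lay above the C1 arrays.

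From C1 to C2, 9 of the 34 leukocyte markers rose and none fell (limma, adjusted p under 0.01). These were shares of 26.5% and 0%, beside 24.2% of all probes called higher and 24.4% lower. The share that rose was thus near that of all probes. Klrb1c, an NK cell receptor, was above background at C2 only and at least 7.79-fold higher there than at C1 (limma, adjusted p = 9.26e-10). S100a9, a calcium-binding protein of myeloid cells, rose by 4.08 (SE 0.46) and its partner S100a8, above background on 4 of 5 arrays at C2 and none at C1, was at least 1.84-fold higher. Lck rose by 1.52 (SE 0.12), Vav1 by 1.44 (SE 0.38), H2-Ab1 by 1.25 (SE 0.29), Cd14 by 1.22 (SE 0.27), Itgax by 1.11 (SE 0.23) and Fcer1g by 0.68 (SE 0.19). Of the 9, Klrb1c, S100a9, S100a8 and Itgax passed the filter on low values through their C2 arrays alone. A fall could hardly have been found for markers admitted in that way, so their calls add little to the count. Vav1 was not called without C1 replicate 1 or 4, nor Fcer1g without any 1 of C1 replicates 1 to 4 or C2 replicate 2. The median difference of the 34 markers was 0.55, beside -0.01 over all probes. Scaling to the median over all gene probes gave 15 rises in place of 9. It shifted the median of all probes to -0.14 at the first step and 0.30 at the second.

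From NC1 to C1, 5 of the 34 leukocyte markers rose, all of them genes of antigen presentation or macrophages, and none fell (limma, adjusted p under 0.01). These were shares of 14.7% and 0%, beside 2.1% and 0.84% of all probes. H2-Eb1, H2-Ab1 and Cd74, of the class II antigen presentation pathway, rose by 2.05 (SE 0.30), 2.03 (SE 0.29) and 1.97 (SE 0.33), and Aif1 and Mpeg1 of macrophages by 1.21 (SE 0.25) and 1.18 (SE 0.24). The count was 3 without any 1 of NC1 replicates 2 to 5, C1 replicates 1, 2, 3 and 5, or C2 replicates 2 and 3, and it was 9 without C2 replicate 1. The summed level of the 8 dendritic and antigen presentation markers went from 0.656 to 1.42 at NC1 to between 2.29 and 5.22 at C1 and between 3.61 and 8.00 at C2, without overlap between NC1 and C1. H2-Eb1, H2-Ab1 and Cd74, already counted above, had the highest means of the list at every stage and weighed most in that sum. Flt3, Cd209a and Xcr1 of the list were above background on no array. From NC1 to C1, 7 of the 10 genes of interest rose, and the part of leukocytes in that result was not tested.

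Other defining markers of leukocytes were measured on some or all arrays. Ptprc (CD45), carried by all leukocytes, was above background on 1, 1 and 4 arrays of NC1, C1 and C2 and had mean levels of -4.92, -4.72 and -4.11. Coro1a stood at -3.48, -2.61 and -2.04, Csf1r at -1.34, -0.48 and -0.11 and Adgre1 at -4.60, -3.81 and -2.99 at NC1, C1 and C2. Cd3e, of the T cell receptor complex that PD-1 acts on, stood at -2.37, -2.66 and -2.86. Elane, of neutrophils, stood at -1.01, -1.47 and -1.06. None of these 6 defining markers was called at either step, whereas from NC1 to C2 Coro1a, Csf1r and Adgre1 rose (limma, adjusted p under 0.01), and they were not tested against the 10 genes. Itgax, also a defining marker, was called from C1 to C2, as given above. Cd79b, a defining marker of B cells, was called at neither step but rose by 1.54 (SE 0.37) from NC1 to C2 (limma, adjusted p = 0.00198). It passed the filter through its C2 arrays alone. From NC1 to C2, 22 of the 34 fitted leukocyte markers rose and none fell by the same test. Their median difference was 1.45, beside -0.05 over all probes. The share of all probes called was not counted for that comparison, so the count of 22 cannot be weighed against it. Markers that passed the filter through their C2 arrays alone, such as Klrb1c and S100a8, could hardly have been called lower.

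Between the arrays of C2, the leukocyte markers were set apart by replicate 1. It was the highest C2 array for 25 of the 34 fitted leukocyte markers, which averaged 0.70 above their C2 means there and between 0.15 and 0.20 below them on the 4 others. The summed level of the 12 pan-leukocyte markers was 2.98 on that array, against 1.08 to 1.47 on the other C2 arrays. The 10 genes averaged 0.02 above their C2 means on the same array, but they differed among themselves. Camp was highest there by both probes, 0.58 and 0.50 above its C2 means, as were Spp1 (0.36 above) and Pik3c2g (0.33 above). Pdcd1 lay 0.11 above its C2 mean on that array, and the other 6 genes lay below theirs, by at most 0.29 (Cd52). At C1, replicate 3 had the highest mean of the 10 genes (-2.17, against -2.90 to -2.60) and also the highest mean deviation of the leukocyte markers (0.20), of which 8 of 34 peaked there and 14 on replicate 5. The weakest signal well above background was also the highest of C1 on replicate 3, at -3.71. At NC1, replicate 1 was highest for both, with mean deviations of 0.21 for the 10 genes and 0.37 for the leukocyte markers, and Pdcd1 and Cd52 were highest on that array. At NC1 the mean of the 10 genes includes 7 that were not well above background. With 5 arrays in a stage, no correlation was computed.

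**Figure D3:**
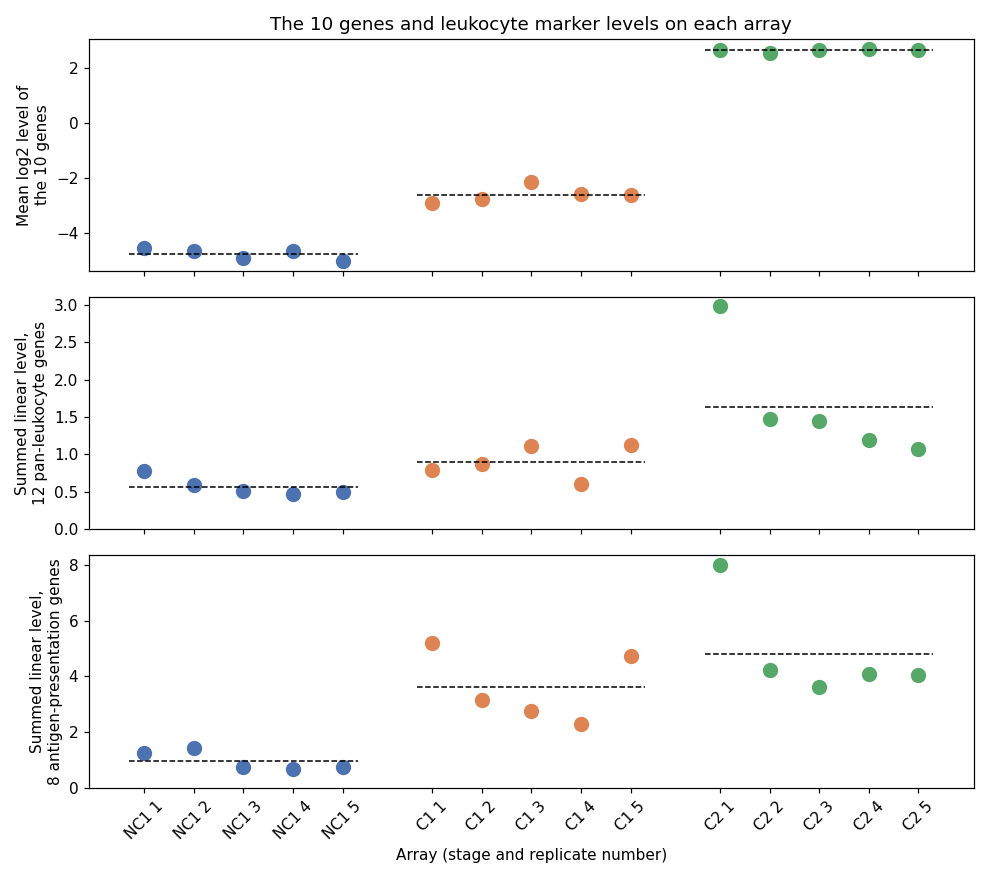
The 15 arrays along the horizontal axis, with the mean log2 level of the 10 genes (top), the summed linear level of 12 pan-leukocyte markers (middle) and that of 8 dendritic and antigen presentation markers (bottom), both sums relative to the median valid probe; dashed lines are stage means. C2 replicate 1 stands out in the lower panels, at 2.98 and 8.00, and not in the top panel, where the C2 arrays lie between 2.54 and 2.69.

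Markers of other cells also moved with stage. The summed level of 7 red blood cell genes was 73.5 to 439 at NC1, 10.54 to 43.6 at C1 and 9.94 to 25.3 at C2, and 4 of the 5 fitted (Hbb-bt, Hbb-b2, Hba-a1 and Hba-a2) fell from NC1 to C1. The sum of 7 theca and stroma genes was 11.1 to 53.1 at NC1, 9.90 to 16.5 at C1 and 0.495 to 0.728 at C2. Of the 9 cumulus and granulosa genes, 8 fell from C1 to C2 and none rose (limma, adjusted p under 0.01). Over all probes 24.4% were called lower at that step. The sum of these 9 genes was 266 to 373 at NC1, 286 to 315 at C1 and 42.2 to 55.2 at C2. Of 15 oviduct epithelium genes, 12 were fitted, and from C1 to C2 2 rose, with Krt18 at 1.77 (SE 0.18), and 6 fell, led by Msln at -5.02 (SE 0.45). The sum of the list was 9.27 to 15.7 at C1 and 25.3 to 31.1 at C2, without overlap. The keratin genes Krt8 and Krt18, the 2 that rose, had the highest means of the list at every stage and weighed most in that sum. Their means were 1.62 and 1.49 at NC1, 1.98 and 2.08 at C1, and 3.28 and 3.85 at C2. Ovgp1, the oviduct glycoprotein, lay between -3.66 and 0.97 at C1 and between -0.33 and 3.06 at C2 (2.28 ± 0.91 SE; limma, adjusted p = 0.0406), and it was called higher at C2 than at NC1 (adjusted p = 0.00472). All 9 oocyte genes were above background on every NC1 and C1 array. At C2, 8 of the 9 were above background on each of replicates 1 to 3, with summed levels of 13.3 to 17.0. On replicates 4 and 5, 3 of the 9 were, with sums of 0.641 and 0.746. The part of these cells in the results above was not tested. Star, the cholesterol transporter of steroidogenic cells, rose by 5.68 (SE 0.51) from NC1 to C1, and Adamts1, a matrix protease of ovulation, by 1.62 (SE 0.24), with no further call for either at C2.

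The partners of the 10 genes were described by 8 lists of 128 genes, of which 86 were fitted. From C1 to C2, 23 rose and 32 fell (limma, adjusted p under 0.01), shares of 26.7% and 37.2% beside 24.2% and 24.4% of all probes. From NC1 to C1, 4 rose and none fell, shares of 4.65% and 0% beside 2.1% and 0.84% of all probes. These counts are those of lists and not evidence of a common change.

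Of the osteopontin family and receptors, 8 of 13 were fitted, of which 4 rose and 3 fell from C1 to C2. The integrin subunit genes Itgb3 and Itga5 rose by 3.11 (SE 0.19) and 2.28 (SE 0.14), and Cd44, the receptor of hyaluronan and osteopontin, by 2.24 (SE 0.28). Itga8 fell below background at C2, at least 2.76-fold lower than at C1. Ibsp and Dmp1, of the same gene family as Spp1, were not well above background on any array. None of the 8 passed the test from NC1 to C1.

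Of 14 partners of PD-1 and other T cell checkpoints, 4 were fitted. Icosl, a costimulatory ligand, fell by 3.45 (SE 0.23) from C1 to C2 and Cd80 fell by 0.55 (SE 0.15), the latter not being called in 14 of 26 alternatives. The genes of the PD-1 ligands, named here for their role and with their values known, were Cd274, above background on 3, 3 and 2 arrays of NC1, C1 and C2, and Pdcd1lg2, above background on none. The genes of the phosphatases that PD-1 recruits, Ptpn11 and Ptpn6, did not pass the test at either step.

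Of 17 genes of extracellular adenosine, all 14 that were fitted were called from C1 to C2, 4 higher and 10 lower. The ectonucleotide pyrophosphatases Enpp3 and Enpp1, which release AMP, rose by 4.53 (SE 0.39) and 3.28 (SE 0.18), beside the 5.74 of Nt5e. Enpp2, which makes lysophosphatidic acid, fell by 2.64 (SE 0.53), and Dpp4, a surface peptidase, was not above background at C2 and was at least 1.88-fold lower there. Adora1, an adenosine receptor gene, was the only one called from NC1 to C1, where it rose by 1.44 (SE 0.18; limma, adjusted p = 0.000131).

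Of 25 phosphoinositide kinases and phosphatases, 20 were fitted, of which 5 rose, 4 fell and 11 did not pass the test from C1 to C2. Pik3r1, a regulatory subunit of class I kinases, rose by 2.51 (SE 0.15) and Inpp5a by 1.11 (SE 0.14), whereas Pik3r3 fell by 1.26 (SE 0.24) and Pik3cg, of leukocytes, was at least 1.95-fold lower. No gene of the list was called from NC1 to C1, the step at which Pik3c2g and Inpp5j rose.

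Of 17 scavenger receptor genes, 16 were fitted, and from C1 to C2 5 rose and 5 fell. Megf10, an engulfment receptor, had a C1 level at least 3.07-fold above NC1 (limma, adjusted p = 2.24e-05) and rose by a further 3.39 (SE 0.32) at C2. From C1 to C2, Colec12 rose by 2.85 (SE 0.18) and Scara5 fell by 3.64 (SE 0.25). Marco rose by 2.58 (SE 0.59), and by 1.89 without C2 replicate 1, where it stood at 0.84 against -3.33 to -2.02 on the other C2 arrays. Scarb1, a receptor that takes up lipoproteins, rose from NC1 to C1 by 1.43 (SE 0.22).

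Of 16 genes of antimicrobial and mucosal defence, 9 were fitted, and 2 of them rose from C1 to C2, Tlr2 by 2.94 (SE 0.16) and Myd88, its adaptor, by 1.20 (SE 0.14). Of 16 keratins, 7 were fitted, of which 2 rose and 4 fell, the latter with differences of -4.84 (SE 0.22) for Krt20, -2.57 (SE 0.36) for Krt80, -2.33 (SE 0.32) for Krt7 and -2.28 (SE 0.47) for Krt19. Of 11 GPI-anchored surface proteins, 9 were fitted, of which Cd14 rose and 4 fell, with Thy1 at -3.46 (SE 0.40), Ly6c1 at -2.38 (SE 0.38) and Cd59a at -1.60 (SE 0.13). None of these 3 lists had a gene called from NC1 to C1.

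**Figure D4:**
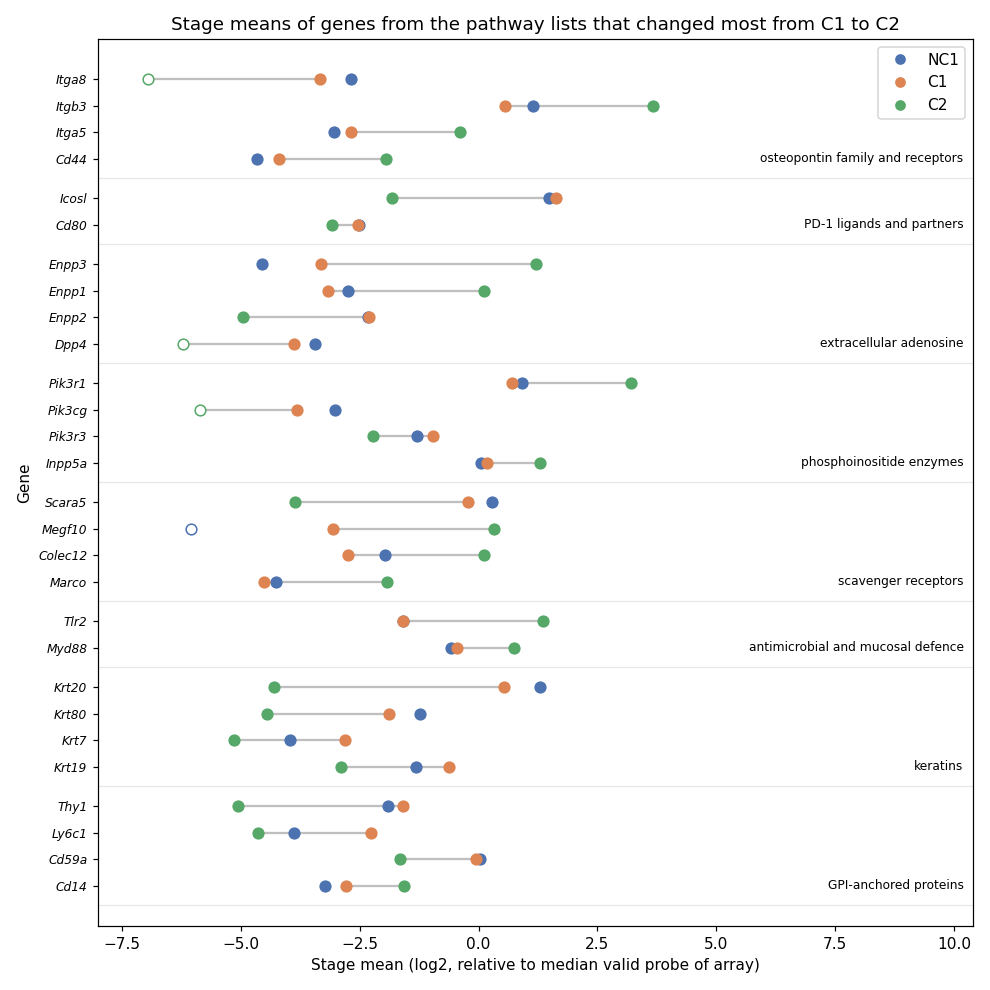
Stage means (horizontal axis, log2 relative to the median valid probe) of the called genes with the largest C1 to C2 change in each of the 8 lists; grey lines join C1 and C2, and open circles are stages with no array well above background. Enpp3 and Itgb3 lie to the right at C2, and Krt20 and Scara5 to the left.

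The 10 genes outside the set whose profile over the 15 arrays was most like the mean standardised profile of the set were Lgals3, Mbp, Ptk2b, Arntl, Cdkn1a, Timp1, AI467606, Tmem62, Bhlhe40 and Rpp25, with Pearson r between 0.991 and 0.996. The 15 points fall into 3 stages, which set most of these values, and they carry no test. Lgals3, which encodes galectin 3, stood at -1.22 ± 0.20 at NC1, 0.84 ± 0.44 at C1 and 5.36 ± 0.18 at C2 (SD, n = 5). Timp1, an inhibitor of matrix proteases, stood at 2.03 ± 0.18, 3.20 ± 0.35 and 6.45 ± 0.13 (SD, n = 5). Each of the 10 was picked for its likeness, so that its higher C1 and C2 levels are no further result. Among the 10 genes of the set, likeness to the mean of the other 9 was lowest for Pik3c2g (r = 0.869) and highest for Camp (r = 0.992) over the same 15 arrays.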

How the data were processed

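Cy3-labelled RNA of 15 cumulus cell pools was hybridized to 1-colour Agilent arrays on 4 slides, each holding all 3 stages. The authors deposited scanner output with the background-subtracted intensity of each spot, linear and not scaled between arrays (Agilent's Feature Extraction software, 10.7.1.1 in the headers), and a table of log2 values for 20855 probes, which was used here only as an alternative.

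Flagged and control spots were left out, spots of a probe were averaged, and log2 values were centred on each array's median over the 17324 probes well above background in at least 4 of 5 arrays of every stage. The 20844 probes that met this in at least 1 stage entered 1 limma model of the 3 stages (limma 3.58.1, R 4.3.3), with Benjamini-Hochberg adjustment over all 20844 and a threshold of 0.01, and the fit was tested on simulated data. No spot was saturated. Probes were named through RefSeq accessions (26055; GRCm38.p6) or the deposited table (2770), and 10604 were not named here. For listed genes, the fitted probe with the highest mean over all arrays was taken. Genes named from a list were the up to 4 called with the largest change per step and the first 3 markers of each leukocyte class, besides the 10 genes most like the set. A few others were named with their values known, for their role or their weight in a sum. Some listed genes are counted but not reported here by name. The p-values measure the spread between these pools. The number of arrays limits the precision. The 10 genes and the lists were chosen with earlier results of these data known.

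Alternatives were other scalings (75th percentile, median over all gene probes, quantile, spike-in), the deposited log2 table, normexp (offset 50) on the median spot intensity, since the files hold no mean, a filter in every stage or none, unmoderated variance, other thresholds, another probe per gene, replicate or slide blocks, and leaving out each array.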

Additional observations from a re-analysis of the deposited data

How the results depend on the processing

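The count of the 10 genes called from NC1 to C1 (7) lay between 5 and 8 in all alternatives but 1. It was 2 with the filter in every stage, which left only Spp1, Pdcd1 and Cd52 to be tested. It was 6 or 7 when single arrays were left out. Leukocyte markers called higher from C1 to C2 (9) became 15 with scaling to the median over all gene probes and with the deposited table, and 4 with the filter in every stage; without single arrays they were 7 to 10, and 1 was called lower with no filter. Those called higher from NC1 to C1 (5) became 3 with scaling to the median over all gene probes, the deposited table, normexp, no filter and unmoderated variance, and 3 to 9 without single arrays. Partner genes called from NC1 to C1 (4 higher, 0 lower) became 8 higher and 5 lower at an adjusted p of 0.05 and 1 lower with quantile normalization, and 0 to 1 were lower without single arrays. The cause of these moves was not tested beyond the filter. Spike-in scaling shifted the median of all probes to 0.13 at the first step and -0.13 at the second.

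Of the values for single genes, 1 turned in direction: C1 minus NC1 of Olr1 (-0.10), below background at both stages, was 0.058 with spike-in scaling, 0.10 with normexp, and -0.38 to 0.33 without single arrays. Signal over background limits the values of the 7 genes below it at NC1, and normexp made most of these differences smaller, as for Pik3c2g (C1 minus NC1 of 3.43, against 5.71).

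Replicate numbers did not pair the samples: same-numbered arrays of different stages correlated between -0.24 and 0.35 in their deviations from the stage means, with 4 of 15 pairs over 0.1. With the replicate number as a block, 6 of the 10 genes were called from NC1 to C1 (Cd52 at an adjusted limma p of 0.0173), leukocyte markers stayed at 9 and 5, and partner genes called from C1 to C2 were 22 higher and 32 lower. It changed no other call of a gene named here.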
